A study of Caenorhabditis elegans with 6 samples.

Results

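A set of 8 genes of the Caenorhabditis elegans intestine was followed in whole larvae after early induction of the transcription factor gene lin-29: the GATA factor genes elt-2, elt-4 and elt-7, and the gut genes ges-1, pho-1, act-5, ifb-2 and opt-2. They are 8 of the 41573 genes listed per library. The set was chosen by the measured rise of elt-2 in the strain hs::lin-29 over the strain hs::control, so the values of elt-2 are given as a description, without a test. The other 7 genes were listed for their place in the intestine, to be examined for the same change. Per the labels, both strains were synchronized at the L1 stage, fed E. coli OP50 at 20 °C and heat-shocked as L3 larvae, 28 h after feeding, for 30 min at 37 °C. RNA of the whole body was prepared 1 h later, in 3 libraries per strain. The strain names and the design text give a heat-shock-driven lin-29 for the one strain and a control for the other. What the control strain carries is not given in the sources used here, and both groups had the heat shock.

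The intestine of the worm is a tube of large epithelial cells that digest food, store fat and make yolk. GATA factors are zinc finger proteins named for the core of the DNA site that they bind. A first set of them makes the embryonic endoderm, and ELT-2 then keeps the gut fate for the rest of life, with ELT-7 as a partner and ELT-4 as a short relative without a known essential role. Downstream of them lie enzymes such as the gut esterase GES-1 and the acid phosphatase PHO-1, and the parts of the apical surface. ACT-5 is the actin of the microvilli, IFB-2 an intermediate filament protein of the sheath under them, and OPT-2 the transporter that takes up small peptides from the gut lumen. LIN-29 is a zinc finger factor best known for timing the larval-to-adult switch of the skin.

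Of the 8 genes, 6 had counts and all 6 passed the filter on low counts. The gene opt-2 was read from the row pept-1, the current name of the same gene. The tables list elt-4 and elt-7 at 0 in all 6 libraries. This does not show that the genes were silent, because genes that many cells use, such as the actin genes act-1, act-3 and act-4, were listed at 0 as well. Among protein-coding genes matched to RefSeq, 5.19% of those with 1 transcript were listed at 0 throughout, against 31.6% of those with 2 transcripts and 35.6% of those with 3 or more. elt-4 and elt-7 have 2 RefSeq transcripts each, and elt-2, ges-1, pho-1, act-5 and pept-1 have 1. ifb-2 has 3 and was counted, at 51196 counts over the 6 libraries. Whether this is why elt-4 and elt-7 were listed at 0 was not tested. No level is given for either of them.

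The 6 libraries held 14553652 to 17303509 counts in genes. Levels are in CPM after TMM scaling of the library sizes, and changes are log2 fold changes of hs::lin-29 over hs::control from edgeR's quasi-likelihood fit over 13045 genes. lin-29 itself, the check of the labels, ranged from 43.8 to 49.8 CPM across hs::control. In hs::lin-29 it reached 131 CPM in replicate 1, 517 in replicate 2 and 339 in replicate 3. On the second principal component hs::control replicate 1 stood apart, at 45.7 against -21.4 to 12.4 in the other 5 libraries. Of all genes tested, 861 passed an adjusted p of 0.05 (6.60%), of which 2.46% of the genes tested were higher and 4.14% lower in hs::lin-29. Leaving out hs::control replicate 2 gave 490 calls, leaving out hs::control replicate 3 gave 459, and leaving out hs::lin-29 replicate 3 gave 547. Further intestinal marker genes had counts at widely different levels in hs::control. The gut protease gene asp-1 was at 4580 ± 581 CPM and the apical proton pump gene vha-6 at 501 ± 108 CPM (SD, n = 3). Of the same markers cpr-1 was at 510 ± 102, spl-1 at 152 ± 23.8 and mtl-2 at 3.57 ± 0.329 CPM. In RNA from whole animals, fewer cells of a type and less RNA per cell cannot be told apart.

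elt-2, the gene of the main intestinal GATA factor, had 9.97, 14.3 and 13.8 CPM across the hs::control replicates, in the order 1 to 3. The hs::lin-29 replicates had 42.0, 32.03 and 28.6 CPM in the same order, which holds for all values by library below. The lowest hs::lin-29 library was above the highest hs::control library, and the strains did not overlap. The means were 12.7 ± 2.36 and 34.2 ± 6.97 CPM (SD, n = 3), a 2.69-fold difference with a log2 fold change of 1.43 and a standard error (SE) of 0.18. The 95% interval of the fit ran from 2.01-fold to 3.59-fold. It takes no account of the choice of the set by the rise of elt-2 and is not a test. Without any 1 library, and under the other scalings, filters and tools, the log2 fold change stayed between 1.24 and 1.54. These values chose the group and support nothing beyond their description. The counts behind them were 140 to 260 reads per hs::control library and 445 to 700 per hs::lin-29 library. In the WBcel235 annotation no other gene overlaps elt-2.

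The order of elt-2 within hs::lin-29 was not the order of lin-29. Replicate 1 had the lowest lin-29 level of the 3 and the highest elt-2 level. Replicates 2 and 3 had more lin-29, and their elt-2 levels lay at 32.03 and 28.6 CPM. In hs::control the library with the most lin-29, replicate 1, had the least elt-2. With 3 libraries per strain no relation between the levels of lin-29 and elt-2 within a strain was tested.

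**Figure D1:**
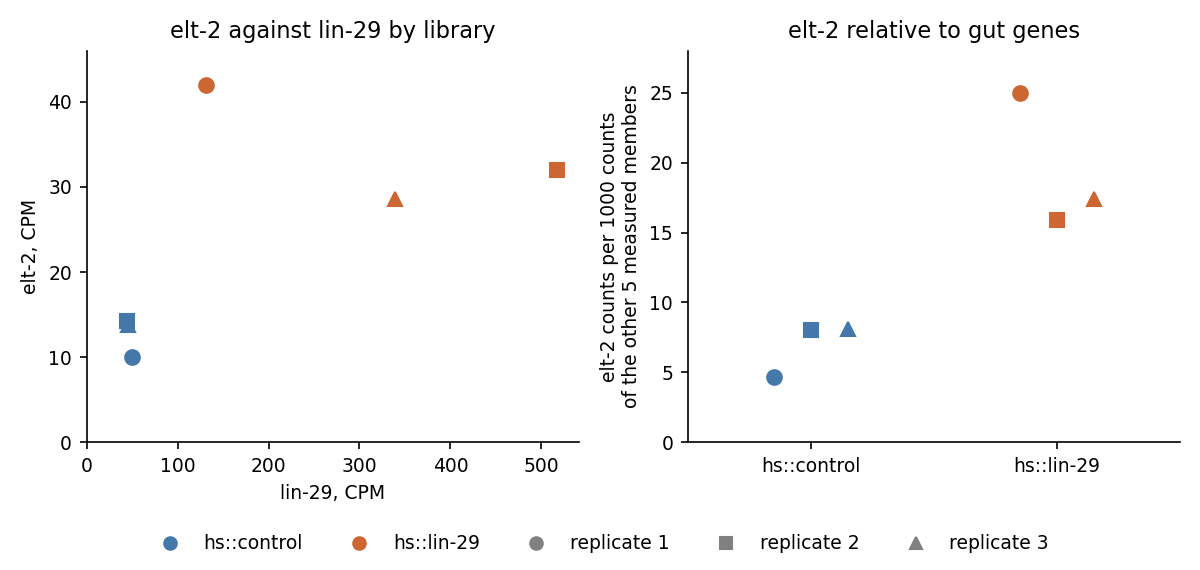
Left, elt-2 level against lin-29 level in CPM for each of the 6 libraries; right, elt-2 counts per 1000 counts of ges-1, pho-1, act-5, ifb-2 and pept-1 together. The 3 hs::lin-29 libraries lie above the 3 hs::control libraries in both panels, and hs::lin-29 replicate 1 has the highest elt-2 at the lowest lin-29 of its strain.

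elt-2 was also set against the other 5 measured genes within each library. Their summed level was 2136, 1784 and 1702 CPM in hs::control and 1682, 2014 and 1642 CPM in hs::lin-29, so the strains overlapped. Per 1000 counts of these 5 genes there were 4.67, 7.99 and 8.13 elt-2 counts in hs::control replicates 1 to 3. In hs::lin-29 there were 24.98, 15.9 and 17.4. These ratios hold the same elt-2 counts that chose the set, so that they too are a description. Against ges-1 alone the ratio of elt-2 to ges-1 counts lay between 0.218 and 0.347 in hs::control, and between 0.695 and 0.759 in the other strain. Against pho-1 alone it was 0.126 to 0.221 and 0.492 to 0.876.

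Of the 5 gut genes measured beside elt-2, 0 passed the adjusted threshold by edgeR, DESeq2 or limma-voom, which called 6.60%, 8.78% and 6.22% of all genes. At an unadjusted p under 0.05 by edgeR, which 18.2% of all genes had, there was 1, pho-1. All 5 had overlapping libraries, whereas the strains did not overlap in 23.2% of all genes tested. With 5 genes against a background of 6.60%, a count of 0 differs little from the share over all genes. Their median log2 fold change was -0.04, beside 0.01 over all genes tested.

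ges-1, the gut esterase gene long used as a mark of intestinal differentiation, was at 45.7, 49.6 and 39.9 CPM in hs::control. In hs::lin-29 it was at 56.4, 46.1 and 37.7 CPM. The highest and the lowest library were both hs::lin-29. The log2 fold change was 0.05 (SE 0.15), with a 95% interval of 0.818-fold to 1.31-fold and an adjusted p of 0.9143 by edgeR. Leaving out hs::lin-29 replicate 1 or hs::control replicate 3 turned its sign, and the 15 alternatives spanned -0.12 to 0.19.

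pho-1, the intestinal acid phosphatase gene, had 79.3, 64.7 and 69.1 CPM in hs::control. The hs::lin-29 values were 47.95, 65.1 and 49.7 CPM. hs::lin-29 replicate 2 lay just above the lowest hs::control library, and the other hs::lin-29 libraries lay below all of hs::control. The log2 fold change was -0.39 (SE 0.14), a level 1.31-fold lower, with an unadjusted p of 0.01904 and an adjusted p of 0.1532 by edgeR. It was below 0 under all 15 alternatives, and its adjusted p ran from 0.04322, with no filter on low counts, to 0.3783. An exon of EGAP2.1 on the other strand overlaps pho-1. The strand setting is not given in the sources used here, so reads of these genes may not be told apart.

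act-5, which encodes the actin of the microvilli, had the highest level of the 6. The hs::control libraries had 1295, 1020 and 1017 CPM and the hs::lin-29 libraries 977, 1254 and 1016 CPM, so that each strain had 1 high library and a lower pair. The log2 fold change was -0.04 (SE 0.14), with a 95% interval of 0.778-fold to 1.22-fold and an adjusted p of 0.9367 by edgeR. Over the alternatives it ran from -0.16 to 0.09 and so changed sign. Actin genes are close copies of each other, and reads with several alignments were not assigned to genes, so the level of act-5 may be too low. Of the other actin genes only act-2 had counts, at 481 ± 70.1 and 616 ± 72.1 CPM (log2 fold change 0.36, adjusted p 0.1998 by edgeR). With no filter on low counts act-2 had an adjusted p of 0.04565.

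ifb-2, the gene of an intermediate filament protein of the gut, was at 618, 574 and 494 CPM in hs::control. In hs::lin-29 it was at 504, 540 and 446 CPM. The ranges overlapped through hs::control replicate 3. The log2 fold change was -0.18 (SE 0.12), with a 95% interval of 0.728-fold to 1.07-fold and an adjusted p of 0.5482 by edgeR.

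pept-1, the row read for opt-2, had 97.1, 76.1 and 82.3 CPM in hs::control. The hs::lin-29 values were 97.6, 108 and 92.8 CPM. Only hs::control replicate 1, the library apart on the second principal component, reached into the hs::lin-29 range. The log2 fold change was 0.23 (SE 0.11), with a 95% interval of 0.977-fold to 1.40-fold and an adjusted p of 0.3628 by edgeR. It was above 0 under all 15 alternatives, at 0.14 to 0.33. Over these alternatives the adjusted p ran from 0.115, without hs::control replicate 1, to 0.7341, without hs::control replicate 2, both by edgeR.

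**Figure D2:**
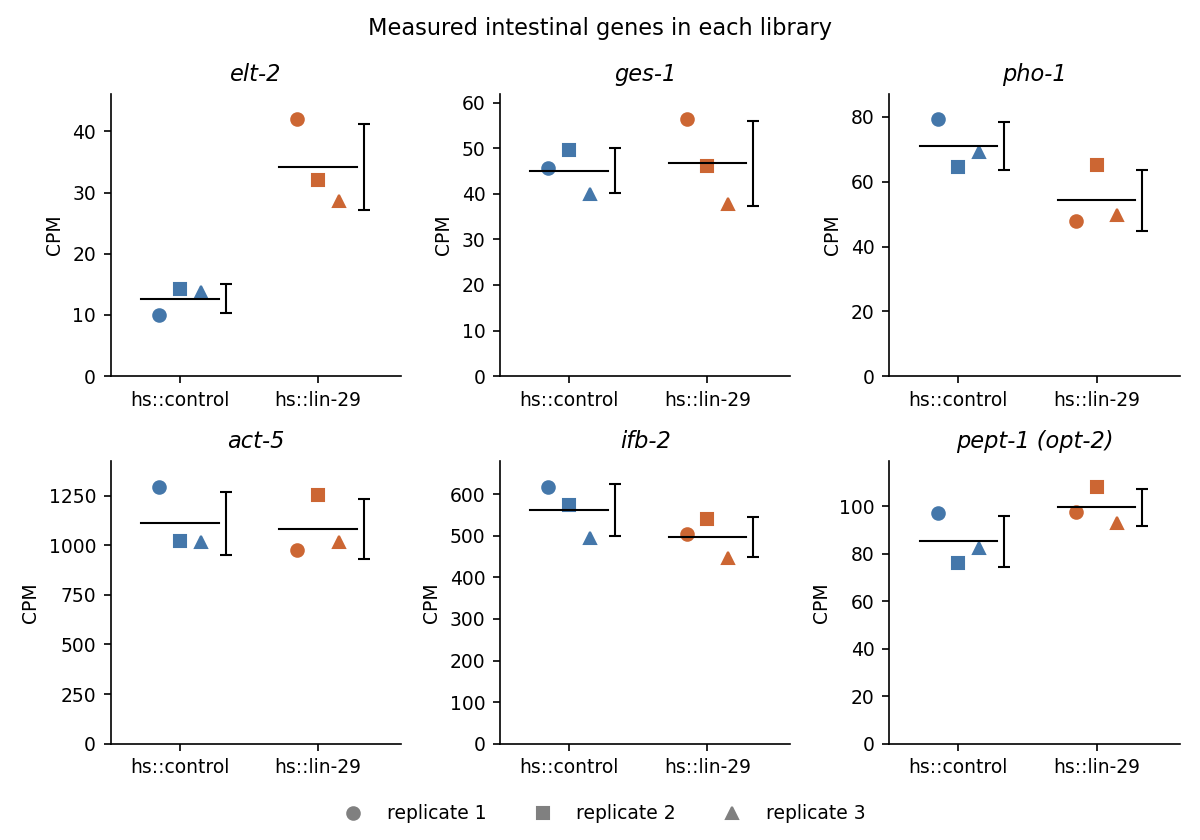
CPM of the 6 measured genes in each library, one panel per gene with its own axis from 0; symbols are replicates, horizontal lines are means of 3 libraries and bars are 1 SD. The strains are apart for elt-2, at 9.97 to 14.3 against 28.6 to 42.0 CPM, and overlap for the other 5.

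**Figure D3:**
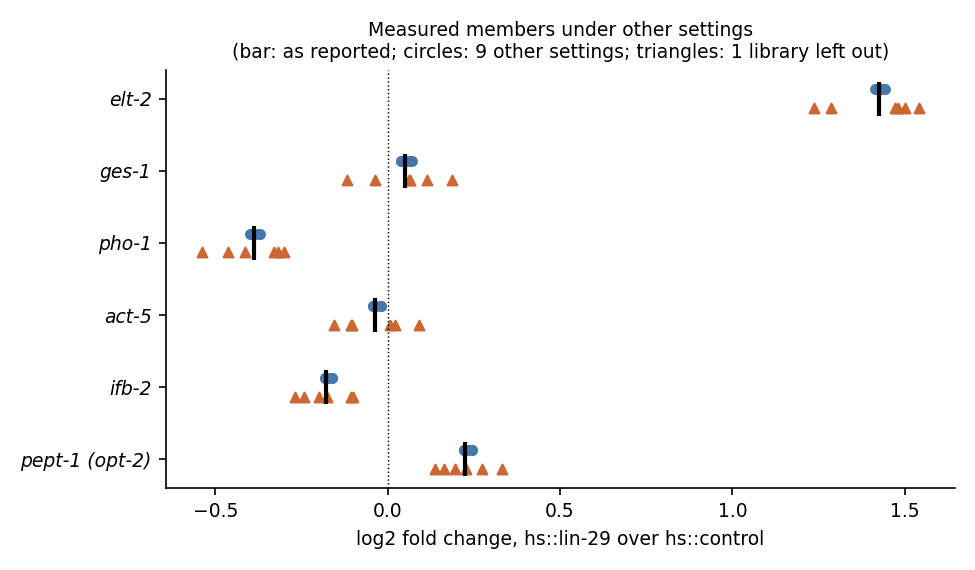
Log2 fold change of hs::lin-29 over hs::control for the 6 measured genes as reported (bar), under 9 other settings (circles) and with 1 library left out (triangles). elt-2 stays between 1.24 and 1.54, while ges-1 and act-5 cross 0 when a library is left out.

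The largest interval bound among the 5 genes was a 1.40-fold rise, for pept-1, and the lowest was a level of 0.617-fold, for pho-1. The coefficient of variation between replicates of the 6 genes lay between 10.6% and 18.6% in hs::control. In hs::lin-29 it lay between 7.94%, for pept-1, and 20.4%. elt-2 was the most variable in both strains.

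Levels between genes were compared as CPM per kilobase of exon. In hs::control act-5 stood at 875 ± 126 CPM per kb, ifb-2 at 295 ± 33.1, pho-1 at 47.0 ± 4.97, pept-1 at 30.5 ± 3.86, ges-1 at 25.9 ± 2.82 and elt-2 at 8.14 ± 1.52 CPM per kb (SD, n = 3). In this order the neighbours pept-1 and ges-1 overlapped between libraries and all other neighbours were apart. In hs::lin-29 the order of the means was the same, with act-5 at 852 ± 118, ifb-2 at 260 ± 24.96, pho-1 at 35.9 ± 6.26, pept-1 at 35.6 ± 2.83, ges-1 at 26.8 ± 5.36 and elt-2 at 21.96 ± 4.47 CPM per kb. There pho-1 and pept-1 overlapped. elt-2, at 18.4 to 26.97 CPM per kb, now overlapped ges-1, at 21.6 to 32.3. In hs::control the highest elt-2 library was at 9.15 and the lowest ges-1 library at 22.9 CPM per kb. This contrast holds the elt-2 values that chose the set and is a description. Reads that could not be assigned to 1 gene are missing from all of these levels.

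Related GATA factor genes gave little to set beside elt-2. The embryonic endoderm genes end-1, end-3, med-1 and med-2 reached no more than 4 counts per library and were not tested. Of the epidermal GATA factor genes, elt-1 and elt-3 were listed at 0. elt-6 and egl-18, which act in the seam cells of the skin, were measured. elt-6 had 11.97, 20.6 and 24.1 CPM in hs::control, around the 19.6, 15.6 and 19.2 CPM of hs::lin-29, at a log2 fold change of -0.06 with an SE of 0.23 and an adjusted p of 0.9307 by edgeR. egl-18 was at 33.5 ± 3.62 and 31.2 ± 3.32 CPM (log2 fold change -0.10, SE 0.12, adjusted p 0.7512). Neither passed in DESeq2 or limma-voom or at an unadjusted p of 0.05, and the libraries of the strains overlapped for both. elt-2 was the only intestinal GATA factor gene with enough counts to be compared.

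Of 7 measured genes of the gut lumen and brush border, act-5 and ifb-2 among them, none rose and 1 fell, where 4.14% of all genes tested fell. The count of falls was 2 with DESeq2, which called 725 of 13045 genes lower. It was 3 with no filter on low counts, where 690 of 24215 genes were called lower. The log2 fold changes of all 7 were negative, where 48.6% of all genes tested had one below 0, and their median was -0.18 beside 0.01 over all genes. The strains did not overlap in 3 of the 7, ifd-2, eps-8 and ifc-2, against 23.2% of all genes tested. The gene that fell was ifd-2, which encodes another intermediate filament protein of the intestine. It went from 62.3, 59.8 and 62.8 CPM in hs::control to 44.5, 39.7 and 33.8 CPM in hs::lin-29, a 1.57-fold lower level. Its log2 fold change was -0.65 with an SE of 0.11, and its adjusted p by edgeR was 0.009207. All hs::lin-29 libraries lay below all hs::control libraries, and the call held under all 15 alternatives, with adjusted p-values from 5.518e-05 to 0.04322. eps-8, whose product binds actin in microvilli, had 173, 148 and 179 CPM in hs::control and, without overlap, 113, 137 and 122 CPM in hs::lin-29. Its log2 fold change was -0.43 (SE 0.11), with an adjusted p of 0.06072 by edgeR and 0.01059 by DESeq2. ifc-2, another intermediate filament gene, had few counts, with 1.78, 1.21 and 1.29 CPM in hs::control and 0.420, 0.720 and 0.182 CPM in hs::lin-29. It has 6 RefSeq transcripts, and of genes with 3 or more, 35.6% were listed at 0, though eps-8 has 12. Whether reads are missing from the row of ifc-2 was not tested. The log2 fold change of ifc-2 was -1.70 (SE 0.48), at an adjusted p of 0.0755 by edgeR. Over the alternatives this ranged from 0.03125, with no filter on low counts, to 0.2063. eps-8 and ifc-2 are named after their values were seen. The brush border linker gene erm-1 had too few counts to be tested, sma-5 was listed at 0 and ifo-1 had no row. erm-1 has 2 RefSeq transcripts and sma-5 has 6. Whether reads are missing from the rows of erm-1 and sma-5 was not tested either.

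**Figure D4:**
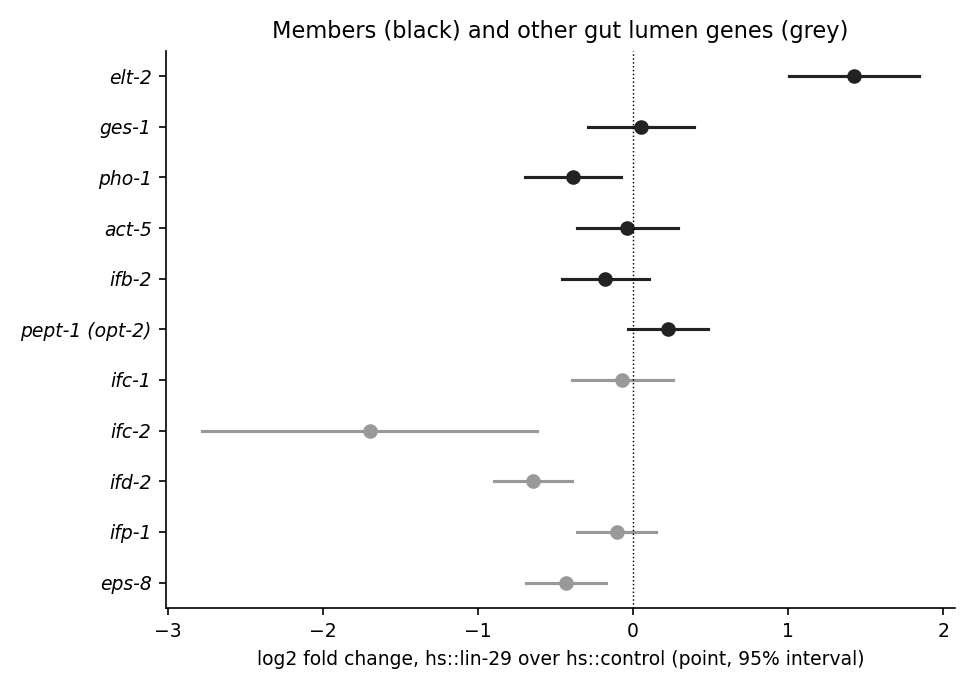
Log2 fold change of hs::lin-29 over hs::control with its 95% interval for the 6 measured members (black) and for other gut lumen genes (grey). elt-2 lies at 1.43, the other members lie between -0.39 and 0.23, and ifd-2 lies at -0.65. The interval of elt-2 takes no account of the choice of the set by its rise and is not a test.

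Genes known from the worm to depend on ELT-2 were read next to elt-2, whose own change chose the set. Of 15 measured, ges-1 and pho-1 among them, 0 were called in either direction by edgeR, which called 6.60% of all genes tested. At an unadjusted p under 0.05 by edgeR, which 18.2% of all genes tested had, there were 4, all lower. DESeq2 called 3 lower, where it called 8.78% of all genes tested in either direction, and limma-voom called 0. edgeR called 2 lower when hs::control replicate 3 was left out, where it called 324 of 13263 genes lower. With low counts unfiltered it called 4 lower, where it called 690 of 24215 genes lower. The strains did not overlap in 3 of the 15, against 23.2% of all genes tested. The median log2 fold change was -0.10, and 11 of the 15 were below 0, where 48.6% of all genes tested were. The pair with the smallest p were ftn-2, a ferritin gene of iron storage, and mtl-1, a metallothionein gene. ftn-2 had 234, 218 and 162 CPM in hs::control and, without overlap, 111, 151 and 141 CPM in hs::lin-29. The log2 fold change was -0.61 (SE 0.16) and the adjusted p by edgeR 0.06352. mtl-1 was low, at 2.49, 4.72 and 1.06 CPM in hs::control and 0.960, 0.576 and 0.364 CPM in hs::lin-29 (log2 fold change -2.11, SE 0.58, adjusted p 0.07364). The yolk protein genes vit-1, vit-2, vit-4, vit-5 and vit-6, which are made in the adult intestine, stood between 2.41 and 15.9 CPM in hs::control, with log2 fold changes from -0.38 for vit-1 to 0.55 for vit-2.

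The families of pho-1 and pept-1 were examined next. Of 12 acid phosphatase genes measured, edgeR, DESeq2 and limma-voom called 0, where they called 6.60%, 8.78% and 6.22% of all genes tested. At an unadjusted p under 0.05 by edgeR, which 18.2% of all genes tested had, 1 was higher and 3 lower. The median was -0.18 and 9 of the 12 were below 0, where 48.6% of all genes tested were. The smallest p was that of pho-4, at 43.8 ± 5.27 and 31.8 ± 6.16 CPM, with a log2 fold change of -0.46 and an adjusted p by edgeR of 0.1322, followed by pho-1. Without hs::lin-29 replicate 1 pho-8 was called lower, with an adjusted p of 0.009728 in place of 0.2144. Of the 3 oligopeptide transporter genes, pept-1, pept-2 and pept-3, 0 were called by edgeR, DESeq2 or limma-voom or at an unadjusted p of 0.05. Their log2 fold changes were 0.23, 0.14 and 0.13.

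In the further lists below edgeR called 0 genes at the adjusted threshold, where it called 6.60% of all genes tested. An unadjusted p under 0.05 by edgeR was found for 18.2% of all genes tested, and DESeq2 called 8.78%. The libraries are of whole larvae, so the levels of the listed genes are not those of the gut cell alone. Of 7 measured genes of the gut granules, lysosome-like stores of the intestine, limma-voom too called 0, and 1 was lower at an unadjusted p under 0.05 and in DESeq2. That gene, the granule transporter gene pgp-2, was at 77.3 ± 12.9 and 56.0 ± 2.78 CPM, with a log2 fold change of -0.46 and an adjusted p by edgeR of 0.06274, and upper quartile scaling gave 0.04602. The other named gene of the list by its p was apb-3, at a log2 fold change of 0.13. Of 6 pumps and exchangers 0 were called by edgeR, DESeq2 or limma-voom, and 1, the proton exchanger gene pbo-4, was lower at an unadjusted p under 0.05 (log2 fold change -0.42, SE 0.13). Next came pgp-1, at -0.31. Of 5 other intestinal regulators 0 were called by these tools, and 1, the Mediator subunit gene mdt-15, was lower at an unadjusted p under 0.05 (log2 fold change -0.29, SE 0.09), followed by the nuclear receptor gene nhr-8 at -0.35. Of 4 epithelial junction genes 0 were called, and 1, dlg-1, was higher at an unadjusted p under 0.05 (log2 fold change 0.38), followed by par-3 at 0.18. ajm-1, hmr-1, hmp-1 and hmp-2 of that list were listed at 0.

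**Figure D5:**
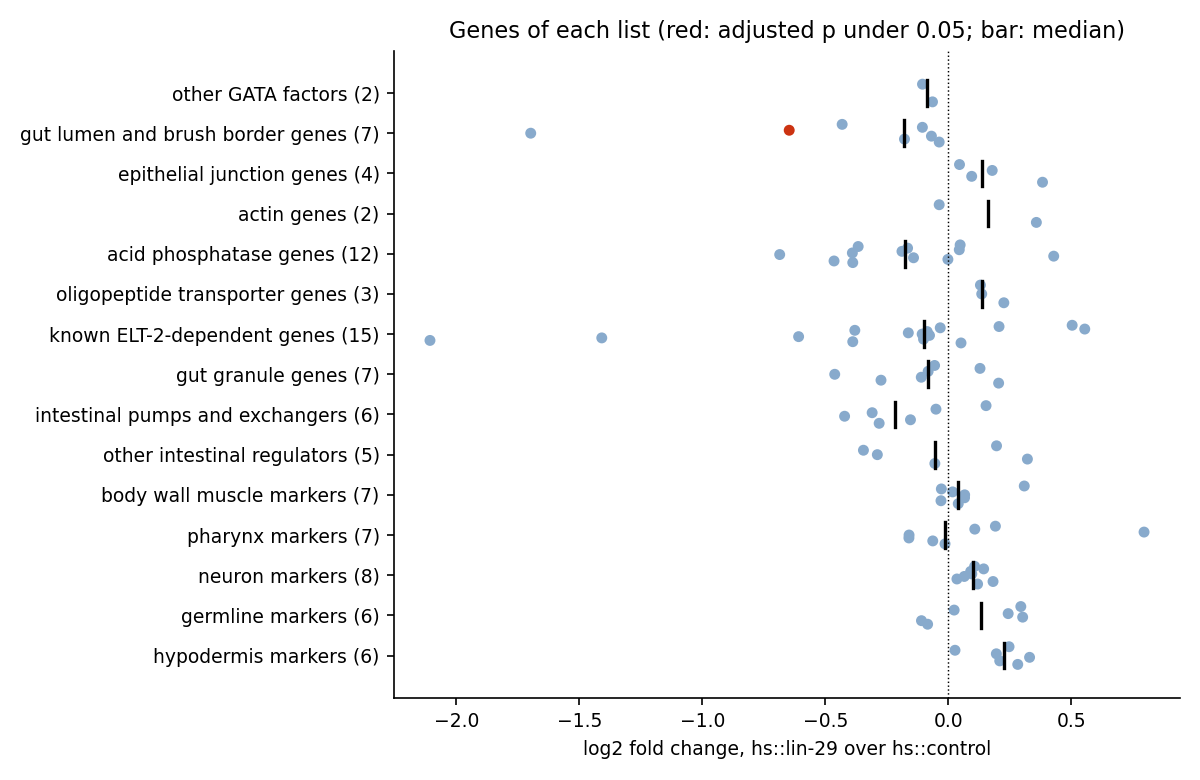
Log2 fold change of hs::lin-29 over hs::control for each measured gene of the lists, with the number measured in brackets, the median as a bar and genes with an adjusted p under 0.05 in red. Only ifd-2, at -0.65, is red; the medians run from -0.22 for pumps and exchangers to 0.23 for hypodermis markers.

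Markers of other tissues were read beside elt-2, since the libraries hold the whole animal. Of 34 measured markers of body wall muscle, pharynx, neurons, germline and hypodermis, edgeR, DESeq2 and limma-voom called 0. These tools called 6.60%, 8.78% and 6.22% of all genes tested. At an unadjusted p under 0.05 by edgeR there was 1, the pharyngeal gland gene phat-1, which was higher. Of all genes tested, 18.2% had such a p. Without hs::control replicate 1 the hypodermis marker wrt-4 was called higher, with an adjusted p of 0.01342. The summed levels overlapped between strains for each tissue. In hs::control and hs::lin-29 the 7 measured muscle markers and those with fewer counts summed to 11840 to 13030 and 11760 to 12600 CPM, the pharynx markers to 2392 to 2519 and 2257 to 2547 CPM, and the neuron markers to 934 to 1051 and 1026 to 1190 CPM. The germline markers summed to 275 to 352 and 285 to 353 CPM and the hypodermis markers to 673 to 919 and 761 to 1017 CPM. Their median log2 fold changes were 0.04 for muscle, -0.01 for pharynx, 0.10 for neurons, 0.13 for germline and 0.23 for hypodermis. Below 0 were 2 of 7 muscle, 4 of 7 pharynx, 0 of 8 neuron, 2 of 6 germline and 0 of 6 hypodermis markers. Of all genes tested, 48.6% were below 0. The strains did not overlap in 3 of the 34 markers, against 23.2% of all genes tested. Listed at 0 were unc-15, lev-11, ceh-22, unc-119, unc-25, egl-3, pgl-1, pgl-3, elt-3 and nhr-23. In which tissue elt-2 RNA was higher was not measured.

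The genes whose levels over the 6 libraries were most like those of elt-2 were C04G6.5, F11E6.6, C03D6.1, F45E1.4 and irld-6, of 9076 genes compared. Likeness was the root mean square difference of centred log2 CPM, at 0.103, 0.184, 0.192, 0.229 and 0.243 in that order, beside a median of 0.762 over all genes compared. C04G6.5 had 5.63, 7.90 and 6.496 CPM in hs::control. With 21.97, 15.98 and 16.5 CPM in hs::lin-29, it shared with elt-2 the low hs::control replicate 1 and the high hs::lin-29 replicate 1. C03D6.1, at 8.82, 6.77 and 7.83 CPM in hs::lin-29, F11E6.6, at 30.1, 17.1 and 18.2 CPM, and irld-6, at 18.01, 11.1 and 9.78 CPM, were also highest in hs::lin-29 replicate 1, the library with the least lin-29 of its strain. F45E1.4 was not, at 122, 95.7 and 129 CPM. The fold changes of the 5 lay between 2.39 for C03D6.1 and 3.21 for F11E6.6, as the measure picks genes with a profile like that of elt-2. Their fold changes and their likeness by library thus follow from the choice and are a description.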

How the data were processed

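The authors deposited 1 table of unnormalized read counts per library. The submitters' processing notes list the build ce10 and, with no roles, STAR 2.5.2b and HTSeq 0.6.1p1, as well as DESeq2 1.12.3. No annotation release or strand setting is given in the sources used here. Rows naming no gene held 39.7% to 41.8% of counts and were left out.

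Genes were kept by filterByExpr, scaled by TMM and tested with edgeR 4.0.16 (quasi-likelihood F test, robust, two-sided, Benjamini-Hochberg adjustment over 13045 genes, threshold 0.05). SEs are the absolute log2 fold change over the square root of F, and intervals use them at 95%. DESeq2 1.42.0 and limma 3.58.1 were alternatives. R 4.3.3 and Python 3.11.15 were used, and the fit was tested on simulated data. Gene lengths, transcripts and overlaps come from WBcel235, another build than ce10, so no coordinates are given. No sequences were used here. Members and lists were chosen with earlier results of these data known. Named genes are all members, list genes past the threshold or the pair with the smallest p, and the 5 genes most like elt-2. For tissue markers, counts and sums are given instead of a pair. Outside this rule eps-8, ifc-2, pept-2, pho-8, wrt-4, phat-1, the vit genes, asp-1, vha-6, cpr-1, spl-1 and mtl-2 were named after their values were seen. The labels call replicates trials and do not say whether cultures were separate, so p-values reflect only the spread of these 6 libraries, possibly technical. No pair of replicates was alike within sampling noise.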

Additional observations from a re-analysis of the deposited data

How the results depend on the processing

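The direction of elt-2, pho-1, ifb-2, pept-1 and ifd-2 was the same under all 15 alternatives, while ges-1 and act-5, which passed in none, changed sign. With the replicate number as a block 556 genes passed, 206 higher and 350 lower, and 1 ELT-2-dependent gene was lower. The numbers did not pair the libraries: deviations of same-numbered libraries correlated at 0.011, -0.361 and 0.238. Leaving out 1 library gave 459 to 894 genes, 135 to 327 higher and 324 to 567 lower, 0 to 1 acid phosphatase genes lower, 0 to 2 ELT-2-dependent genes lower and 0 to 1 hypodermis markers higher. With no filter on low counts 1151 of 24215 genes passed, 461 of them higher and the rest lower. In that setting 1 member besides elt-2, pho-1, passed, and lin-29 did not (adjusted p 0.1017). The lists then held 3 lumen genes, 2 acid phosphatase genes, 4 ELT-2-dependent genes and 1 granule gene lower and 1 actin gene higher. DESeq2 called 2 lumen genes, 3 ELT-2-dependent genes and 1 granule gene lower, and upper quartile scaling 1 granule gene lower. The cause of these differences was not tested. With coding length, levels in hs::control became 9.77 CPM per kb for elt-2 and 52.7 for pho-1, and in hs::lin-29 286.9 for ifb-2 and 39.7 for pept-1. Few counts limit precision for mtl-1 and ifc-2, with 170 and 90 counts over the 6 libraries.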
